A study of Mus musculus with 9 samples.

Results

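The proteases that cut the extracellular matrix and shed cell surface proteins, together with their inhibitors, were followed in mouse fibroblasts carrying v-Src or STAT3-C. The set holds every probeset whose only annotated gene symbol is Mmp, Adam, Adamts or Timp followed by a number, with letters after the number allowed, or is Reck. This gave 117 probesets for 66 genes, of 45037 probesets and 18193 genes in all: 18 matrix metalloproteinase (MMP) genes with 29 probesets, 28 ADAM genes with 46, 15 ADAMTS genes with 28, 4 TIMP genes with 13, and Reck with 1. A further 5 probesets name a member beside other genes and were left out.

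RNA was measured on Affymetrix whole-genome mouse arrays in Balb/c-3T3 cells, an immortal line of mouse embryo fibroblasts, with 3 arrays a line. The v-Src line was stably transfected with pMvSrc, which expresses the oncogenic tyrosine kinase that Rous sarcoma virus carries (arrays 1, 5 and 6). The STAT3-C line was stably transfected with pRc/CMV-STAT3C, which expresses a form of the transcription factor STAT3 that stays dimerised without phosphorylation (arrays 1, 2 and 3). The control line was unmodified Balb/c-3T3 (arrays 1, 2 and 3), and every line was grown in the same serum-containing medium. Each array holds RNA pooled from 5 dishes of 1 of 3 consecutive passages of 1 stable line, so that the p-values reflect how far passages of a line vary and say nothing of the spread among separate clones. The transfected lines were each compared with the same 3 control arrays, and with each other.

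MMPs are zinc-dependent proteases that cleave collagens, gelatin, proteoglycans and other matrix proteins, and are made as inactive precursors. ADAMs are membrane-bound relatives that release growth factors, cytokines and adhesion molecules from the cell surface, while ADAMTS proteases are secreted and cut matrix proteoglycans such as versican and aggrecan. TIMPs are secreted proteins that block the active site of these proteases, and Reck is a membrane-anchored inhibitor. Fibroblasts are a main source of MMPs, and MMP promoters are known for binding AP-1 factors.

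Values are the deposited Robust Multichip Average (RMA) expression levels on the log2 scale. Across arrays the lower quartile of all probesets lay between 5.07 and 5.16 and the median between 6.27 and 6.39. A level below the lower quartile is treated as near background, so that a log2 fold change to or from it has a size limited by background. Over all probesets, the Pearson correlation was 0.990 to 0.995 within lines, 0.971 to 0.977 between the transfected lines, and 0.943 to 0.948 when either was set against control arrays. To be called higher or lower, a probeset needed an adjusted p under 0.05 from limma (Benjamini-Hochberg, over all 45037 probesets) and a fold of at least 1.5, and for a gene with several probesets the 1 of highest average level represented it. No filter on low values was applied. With 3 arrays a line, exact permutation can reach no p below 0.1, and the adjusted p-values rest on the variance limma pools across probesets. SE is limma's standard error of a log2 fold change. Of 12 fibroblast markers, v-Src cells had 7 lower (58.3%) and 2 higher (16.7%), and STAT3-C cells 8 lower (66.7%) and 1 higher (8.33%). Over all genes 10.4% were lower and 9.54% higher in v-Src cells, and 10.3% and 11.9% in STAT3-C cells. The higher markers were Fn1 (log2 fold change 1.13) and S100a4 (0.65) with v-Src, and S100a4 (0.89) with STAT3-C. Thy1, a surface glycoprotein of fibroblasts, had log2 fold changes of -5.17 and -5.18 in the v-Src and STAT3-C lines, while Vim (vimentin) averaged 13.43, 13.17 and 13.41 in v-Src, STAT3-C and control cells. Among 6 epithelial markers Cdh1 (E-cadherin) was the only 1 below the lower quartile, and was so in every line. Epcam, an epithelial adhesion protein, averaged 9.71, 9.05 and 9.37 in v-Src, STAT3-C and control cells. The keratin genes Krt5, Krt8, Krt14 and Krt18 were above the lower quartile in every line, with averages between 5.51 and 7.04. Of 4 endothelial markers Pecam1 and Tek were below the lower quartile in every line and Kdr and Cdh5 in none, with averages of 7.07, 6.89 and 6.89 for Kdr and 5.34, 5.41 and 5.21 for Cdh5 in v-Src, STAT3-C and control cells. In these bulk samples, fewer cells of a type and less RNA per cell cannot be told apart.

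Of the 66 genes, 16 were below the lower quartile in all 3 lines, 8 of them among the 16 ADAM genes known mainly from testis and other germ line or reproductive tissue, and 19 were so in v-Src, 18 in STAT3-C and 16 in control cells. These shares of 28.8%, 27.3% and 24.2% compare with 14.9%, 14.3% and 14.9% over all genes. The collagenase genes Mmp1a and Mmp1b and the macrophage metalloelastase gene Mmp12 were among the 16.

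In v-Src cells 20 of the 66 genes (30.3%) passed against control, 10 upward and 10 downward (15.2% each way), where over all genes 19.9% passed, 9.54% upward and 10.4% downward. In STAT3-C cells 15 passed (22.7%), 6 upward (9.09%) and 9 downward (13.6%), against 22.2% over all genes, 11.9% upward and 10.3% downward. By probeset, v-Src cells had 36 of 117 called, 22 upward and 14 downward, where 16.8% of all probesets were called (8.75% and 8.10% by direction). STAT3-C cells had 30, 16 upward and 14 downward, where 18.3% of all were called (9.68% and 8.58%). The median log2 fold change of the member genes was 0.05 in each comparison with control, near the 0.02 and 0.04 of all genes. The remaining 44 genes passed in no comparison at the probeset of highest level, with log2 fold changes from -0.58 (Adamts6) to 0.74 (Adamts1) in v-Src and from -0.51 (Mmp11) to 0.58 (Adamts12) in STAT3-C cells, and 4 of them (Adam15, Adam22, Timp2 and Timp4) passed at another probeset. Falls were led by stromelysin-1, collagenase-3 and gelatinase A, while rises were found among ADAMs, gelatinase B and the inhibitors Timp1 and Timp3.

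**Figure D1:**
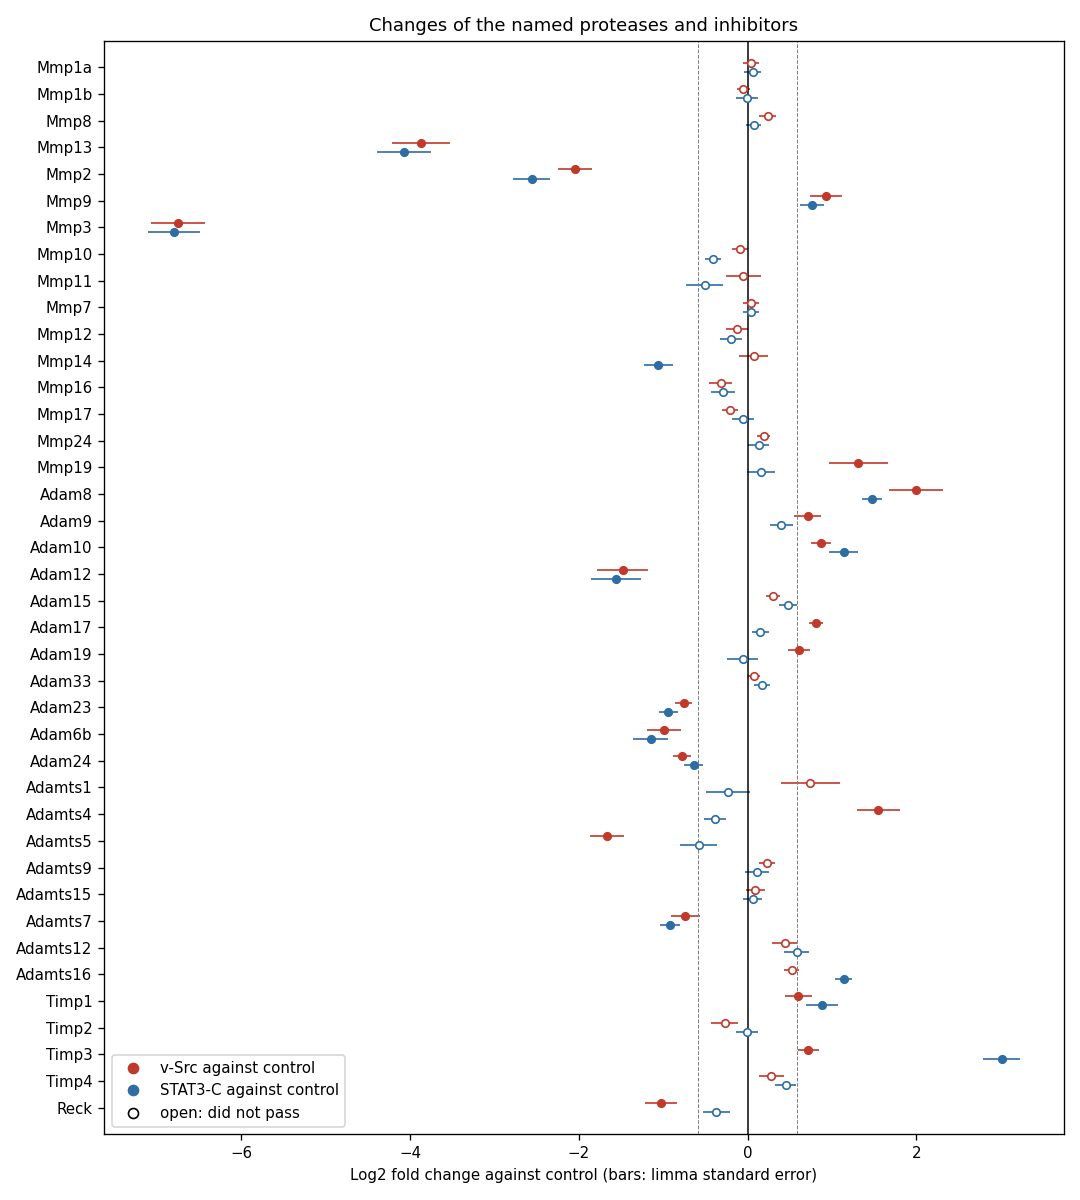
Log2 fold change against control (x axis) of 40 named genes, ordered by role from MMPs at the top to inhibitors at the bottom, with v-Src (red) above STAT3-C (blue) for each gene; bars are limma standard errors, filled points passed, open points did not, and dashed lines mark a fold of 1.5 each way. Mmp3, Mmp13 and Mmp2 lie far to the left in both lines, Timp3 far to the right with STAT3-C, and Adamts4 and Adamts5 lie apart from 0 on opposite sides with v-Src.

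The promoters of Mmp13 and Mmp3 are shown because these genes fell most, and that of Mmp10 because it is a neighbour with the same motif that did not pass. The sequences are RefSeq windows on build GRCm38.p6, each 300 bases from 250 before to 50 after the annotated start, all on the + strand: chr9:7272264-7272563 for Mmp13, chr9:7445572-7445871 for Mmp3 and chr9:7502092-7502391 for Mmp10. Capitals mark the letters TGANTCA, the core of AP-1 sites, which read the same on both strands apart from the middle base.
Mmp13: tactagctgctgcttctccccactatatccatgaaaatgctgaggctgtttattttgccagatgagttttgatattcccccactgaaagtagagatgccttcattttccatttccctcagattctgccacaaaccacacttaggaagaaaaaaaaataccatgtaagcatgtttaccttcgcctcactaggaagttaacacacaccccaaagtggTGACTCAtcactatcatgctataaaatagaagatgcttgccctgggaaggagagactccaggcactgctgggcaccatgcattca
Mmp3: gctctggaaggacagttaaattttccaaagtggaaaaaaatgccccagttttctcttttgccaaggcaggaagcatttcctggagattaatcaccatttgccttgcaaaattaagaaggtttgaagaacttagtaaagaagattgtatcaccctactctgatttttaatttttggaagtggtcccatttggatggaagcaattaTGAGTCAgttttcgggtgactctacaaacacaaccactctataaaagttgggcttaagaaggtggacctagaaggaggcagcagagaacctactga
Mmp10: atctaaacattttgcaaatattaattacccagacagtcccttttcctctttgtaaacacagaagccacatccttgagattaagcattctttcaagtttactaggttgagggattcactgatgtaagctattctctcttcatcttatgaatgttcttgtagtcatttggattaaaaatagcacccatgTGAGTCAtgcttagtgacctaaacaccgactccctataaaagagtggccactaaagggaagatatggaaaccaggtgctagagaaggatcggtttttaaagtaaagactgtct

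The capitals begin at -35 from the start in Mmp13, at -46 in Mmp3 and at -63 in Mmp10. TGANTCA was present in 11 of 43 member windows (25.6%), against 2565 of 32851 windows in the whole table (7.81%). Outside the chromosome 9 cluster it was in windows of Adam19, Adam1b and Adam25 only. The other windows with it belong to 8 of the 9 measured Mmp genes of that cluster. Of these 8, Mmp13 and Mmp3 passed a test and Mmp1a, Mmp1b, Mmp7, Mmp10, Mmp12 and Mmp20 did not. The letters TTCNNNGAA, the core of STAT sites, likewise searched on both strands, were in 3 of 43 member windows (6.98%), against 8.30% of all windows. They belong to Adam21 and Mmp23, neither of which passed. Windows existed for 38 of the 66 genes, and a match or its absence in 300 bases is only a description of these letters.

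Mmp3, stromelysin-1, which cleaves proteoglycans and activates other MMP precursors, had log2 levels of 5.02, 5.18 and 4.90 in v-Src cells, 4.87, 5.14 and 4.95 in STAT3-C cells, and 10.97, 12.25 and 12.14 in control cells. Both transfected lines averaged below the lower quartile, and control array 1 was the lowest of the control arrays. The log2 fold change was -6.75 in v-Src cells (SE 0.32, adjusted p = 1.89e-05) and -6.80 in STAT3-C cells (SE 0.31, adjusted p = 4.51e-06). For Mmp13, collagenase-3, the levels were 3.79, 3.71 and 3.55 in v-Src cells, 3.50, 3.49 and 3.46 in STAT3-C cells, and 6.81, 8.33 and 7.51 in control cells. Again control array 1 was the lowest control value and no array of a transfected line came near it. It fell by 3.87 (SE 0.34, adjusted p = 0.000249) with v-Src and by 4.07 (SE 0.32, adjusted p = 6.38e-05) with STAT3-C on the log2 scale. Both falls end near background. Mmp2, gelatinase A, which degrades denatured and basement membrane collagen, remained well expressed: its levels were 9.70, 9.62 and 10.00 in v-Src cells, 9.40, 9.47 and 8.90 in STAT3-C cells, and 11.59, 12.27 and 11.60 in control cells. It fell by 2.05 (SE 0.20, adjusted p = 0.000382) with v-Src and by 2.56 (SE 0.22, adjusted p = 9.2e-05) with STAT3-C, and its other probeset gave -2.14 and -2.44. Among the fibroblast markers, Thy1 and Lum fell in the same lines. S100a4 rose in both (0.65 with v-Src and 0.89 with STAT3-C), Fn1 rose with v-Src (1.13), and Vim passed in neither. The part of the fibroblast markers in these falls was not tested.

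Mmp9, gelatinase B, went the other way. Its levels were 7.35, 7.59 and 8.07 in v-Src cells, 7.35, 7.76 and 7.41 in STAT3-C cells, and 6.79, 6.90 and 6.55 in control cells. Every transfected array lay above every control array, with a log2 fold change of 0.93 (SE 0.19, adjusted p = 0.00972) in v-Src cells and 0.76 (SE 0.14, adjusted p = 0.00436) with STAT3-C. The other probeset, 1448291_at, gave 2.21 (SE 0.24) and 2.08 (SE 0.14). The size of the rise thus depended on the probeset, by more than 1 on the log2 scale, while its direction did not. Mmp9 is abundant in macrophages, whose markers Ptprc and Itgam were below the lower quartile in all 3 lines. Lyz2 rose by 0.86 and 1.95 in the v-Src and STAT3-C lines, and Cd68 by 1.14 with STAT3-C. The markers Csf1r and Adgre1 lay above the lower quartile throughout and passed in neither comparison with control. Mean levels of Csf1r were 7.81 (v-Src), 7.31 (STAT3-C) and 7.49 (control), and those of Adgre1 were 6.27, 6.14 and 6.16 in that order. The mean level of all 6 macrophage and leukocyte markers per array ranged from 6.05 to 6.28 in v-Src, 6.42 to 6.60 in STAT3-C and 5.83 to 6.03 in control cells. The part of these markers in the Mmp9 values was not tested.

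Mmp14, the membrane-type protease that activates the Mmp2 precursor at the cell surface, passed against control in the STAT3-C line and not in the v-Src line. The levels were 11.00, 10.72 and 11.14 in v-Src cells, 9.66, 9.71 and 10.08 in STAT3-C cells, and 10.69, 11.22 and 10.72 in control cells. The v-Src and control arrays overlapped, and all 3 STAT3-C arrays lay below both. The log2 fold change was 0.07 (SE 0.17, adjusted p = 0.785) in v-Src cells and -1.06 (SE 0.17, adjusted p = 0.00236) with STAT3-C. Its other 2 probesets were also lower with STAT3-C, at -0.82 and -1.17. The other membrane-type MMPs Mmp16, Mmp17 and Mmp24 did not pass in any comparison, with values against control between -0.32 and 0.19.

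Mmp19, a widely expressed MMP of the matrix and basement membrane, had levels of 8.73, 7.38 and 8.62 in v-Src cells, 7.13, 7.32 and 6.83 in STAT3-C cells, and 6.67, 6.91 and 7.21 in control cells. The v-Src arrays were above the others, though array 5 only narrowly. The log2 fold change of 1.31 (SE 0.35) with v-Src passed with an adjusted p of 0.0291, and that of 0.16 (SE 0.17) with STAT3-C had an adjusted p of 0.521. Without control array 1, 2 or 3 or v-Src array 1 or 6 the v-Src value no longer passed (log2 fold changes 1.07 to 1.45, adjusted p 0.0586 to 0.0995). At the probeset 1421977_at the v-Src value was 0.80 (adjusted p = 0.179), while the STAT3-C value was -0.74 (adjusted p = 0.0116). Of the remaining MMPs, the collagenase Mmp8, the stromelysins Mmp10 and Mmp11 and the matrilysin Mmp7 did not pass, with log2 fold changes between -0.51 and 0.24. Without control array 3, however, Mmp11 passed downward in STAT3-C cells (-0.73, adjusted p = 0.0322).

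**Figure D2:**
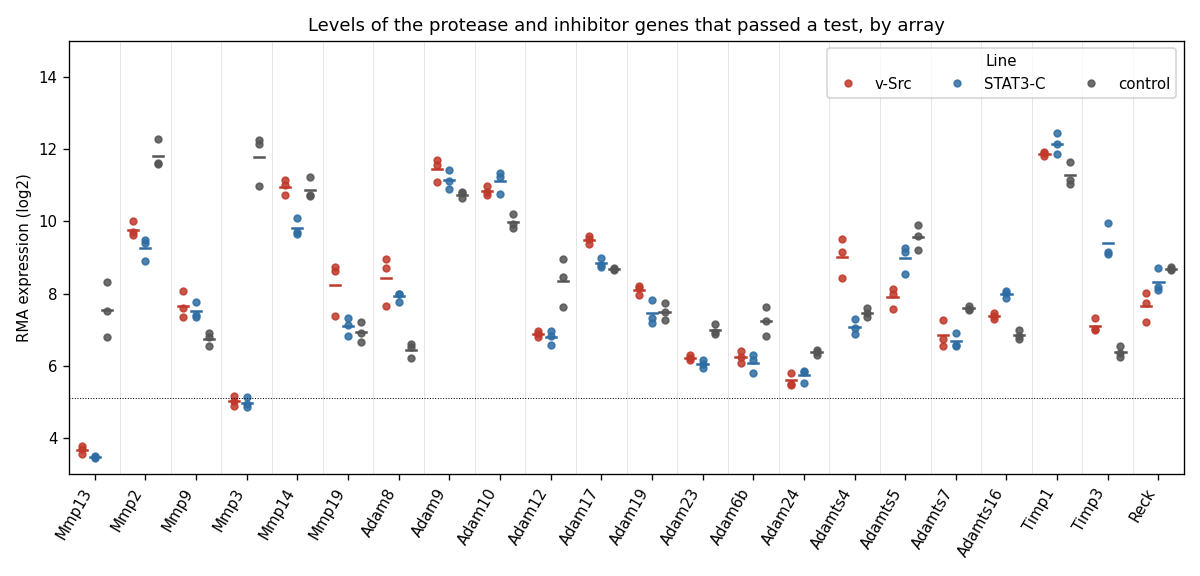
RMA level on the log2 scale (y axis) of each of the 22 genes that passed in at least 1 comparison, ordered by role, in v-Src (red), STAT3-C (blue) and control cells (grey); points are arrays, short bars are means over 3 arrays, and the dotted line is the lower quartile of all probesets averaged over the 9 arrays. Mmp3 and Mmp13 fall to or under that line in both transfected lines. Among the v-Src points, those of Mmp19, Adam8 and Adamts4 are the most spread, and the control points of Mmp3, Mmp13 and Adam12 are widely spread too.

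On chromosome 9, 10 Mmp genes lie in 1 stretch, of which 9 were measured and Mmp27 was not measured here. In gene order these are Mmp13, Mmp12, Mmp1b, Mmp3, Mmp1a, Mmp10, Mmp8, Mmp20 and Mmp7. Mmp13 and Mmp3 passed in each comparison with control, the other 7 passed in none, and 4 of them (Mmp12, Mmp1b, Mmp1a and Mmp20) were below the lower quartile in every line. The genes that passed are thus not next to each other, with Mmp12 and Mmp1b between them. Mmp10, another stromelysin gene, had levels of 7.11, 7.03 and 7.00 in v-Src cells, 6.69, 6.71 and 6.78 in STAT3-C cells, and 6.99, 7.13 and 7.29 in control cells, a log2 fold change of -0.09 (SE 0.10) in v-Src cells and -0.41 (SE 0.10, adjusted p = 0.0178) with STAT3-C, under the fold threshold. Among 7 other genes of the stretch, Birc3, an inhibitor of apoptosis, fell by 1.81 (SE 0.08) with v-Src and by 1.96 (SE 0.09) with STAT3-C. Yap1, a Hippo pathway coactivator, fell by 0.68 with STAT3-C (SE 0.11), while Dcun1d5 and Tmem123 rose by 0.67 and 0.60 (SE 0.12 each). Thus in STAT3-C cells 2 of the 7 fell and 2 rose (28.6% each way), and in v-Src cells 1 fell (14.3%). Over all genes 10.3% fell and 11.9% rose in STAT3-C cells, and 10.4% fell in v-Src cells. Dync2h1, a dynein motor of cilia, had a direct difference, v-Src minus STAT3-C, of 0.74 (SE 0.13, adjusted p = 0.0075).

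**Figure D3:**
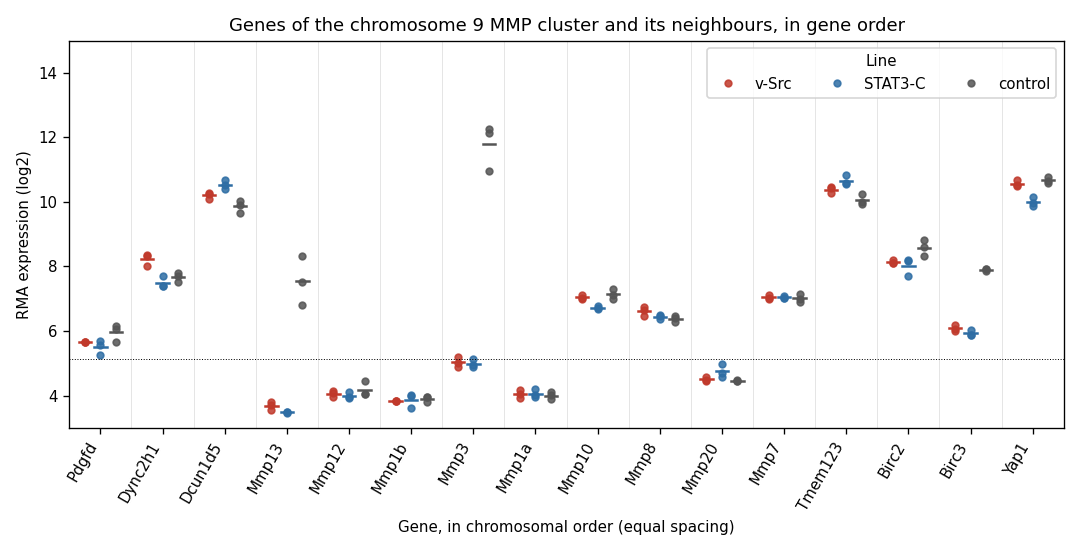
RMA level on the log2 scale (y axis) of the measured genes of the chromosome 9 MMP cluster and its neighbours, in gene order with equal spacing (x axis), in v-Src (red), STAT3-C (blue) and control cells (grey); points are arrays, short bars means, and the dotted line the lower quartile of all probesets averaged over the 9 arrays. The control points of Mmp13 and Mmp3 stand above those of the transfected lines, as do those of Birc3, while 4 Mmp genes lie under the line in every array.

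Of the ADAMs, 9 were grouped neither as neuronal nor as known mainly from testis and other reproductive tissue. Among these, 5 of 9 passed upward and 1 downward in v-Src cells, and 2 upward and 1 downward in STAT3-C cells. The shares over all genes, by direction, were 9.54% and 10.4% in v-Src cells and 11.9% and 10.3% in STAT3-C cells. Adam8, a sheddase of leukocytes and tumour cells, had levels of 8.95, 7.66 and 8.71 in v-Src cells, 7.78, 8.00 and 7.99 in STAT3-C cells, and 6.51, 6.23 and 6.60 in control cells. All transfected arrays lay above the control arrays, and v-Src array 5 was more than 1 below the other v-Src arrays. Adam8 rose by 1.99 (SE 0.32, adjusted p = 0.00332) with v-Src and by 1.47 (SE 0.12, adjusted p = 8.12e-05) with STAT3-C. Adam10, which sheds Notch and cadherins, had levels of 10.82, 10.74 and 10.97 in v-Src cells, 11.24, 11.35 and 10.75 in STAT3-C cells, and 9.92, 9.81 and 10.21 in control cells. Both lines were above control on every array, by 0.87 (SE 0.12, adjusted p = 0.00182) in v-Src cells and 1.14 (SE 0.17, adjusted p = 0.00177) with STAT3-C. At 1450105_at the v-Src value was larger, at 1.36, and the STAT3-C value of 0.56 was under the fold threshold. Of the 4 Adam10 probesets, 3 passed upward with v-Src and 2 with STAT3-C. In the direct comparison 1 of the 4 passed, higher in v-Src cells, and it was not the probeset of highest level.

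Adam17, the enzyme that releases tumour necrosis factor and ligands of the EGF receptor, had levels of 9.51, 9.38 and 9.60 in v-Src cells, 8.79, 8.98 and 8.74 in STAT3-C cells, and 8.66, 8.68 and 8.71 in control cells. The v-Src arrays stood apart, and the STAT3-C arrays were only just above control. It rose by 0.81 (SE 0.08, adjusted p = 0.00043) with v-Src, while with STAT3-C the log2 fold change was 0.15 (SE 0.10, adjusted p = 0.284). At 1421858_at both lines passed, with 1.13 in v-Src cells and 0.70 in STAT3-C cells. At 1421857_at the values were 1.62 (SE 0.13) in v-Src cells and 0.54 (SE 0.12) in STAT3-C cells, under the fold threshold, so that the v-Src rise ranged over the 3 probesets between 0.81 and 1.62. Adam19, which sheds neuregulin, had levels of 8.16, 7.97 and 8.21 in v-Src cells, 7.33, 7.83 and 7.19 in STAT3-C cells, and 7.74, 7.50 and 7.27 in control cells. STAT3-C and control arrays overlapped. The log2 fold change of 0.61 (SE 0.13, adjusted p = 0.0128) with v-Src was close to the fold threshold, and was 0.49 without control array 3, 0.59 without v-Src array 1 and 0.56 without v-Src array 6, each of which no longer passed. After median centring it was 0.54 and after quantile normalization 0.57, also below the threshold. The other probeset, 1418403_at, rose by 0.89 with v-Src (SE 0.15, adjusted p = 0.004).

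Adam9, a sheddase of heparin-binding EGF-like growth factor, had levels of 11.57, 11.08 and 11.69 in v-Src cells, 11.12, 11.42 and 10.89 in STAT3-C cells, and 10.77, 10.80 and 10.65 in control cells. It was 0.71 higher with v-Src (SE 0.16, adjusted p = 0.0148) and 0.40 with STAT3-C (SE 0.14, adjusted p = 0.064). The v-Src value did not pass without control array 3 (0.66, adjusted p = 0.0568), v-Src array 1 (0.64, adjusted p = 0.0613) or v-Src array 6 (0.58, adjusted p = 0.0482). Adam12, which is active in mesenchymal cells and cleaves insulin-like growth factor binding proteins, had levels of 6.87, 6.97 and 6.80 in v-Src cells, 6.83, 6.97 and 6.58 in STAT3-C cells, and 8.45, 7.64 and 8.97 in control cells. It was the only 1 of these 9 ADAMs to fall, by 1.48 (SE 0.30, adjusted p = 0.00968) with v-Src and by 1.56 (SE 0.30, adjusted p = 0.00493) with STAT3-C, with control array 2 the lowest of the control arrays. For Adam15, a membrane-anchored ADAM, the probeset of highest level gave 0.30 and 0.48 in the v-Src and STAT3-C lines, under the fold threshold. Its other 3 probesets passed in both lines, with log2 fold changes of 0.62 to 1.28 with v-Src and 0.63 to 1.09 with STAT3-C. Adam33 and Adam28 did not pass.

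Of the ADAMs grouped as neuronal or reproductive, Adam23, a catalytically inactive neuronal ADAM, fell by 0.76 with v-Src (SE 0.10) and by 0.94 with STAT3-C (SE 0.11). Its mean over 3 probesets gave -0.41 in v-Src and -0.48 in STAT3-C cells, under the fold threshold. Adam6b, known from testis, had -0.99 (SE 0.20) and -1.15 (SE 0.21), and Adam24, a testis ADAM, -0.78 and -0.64 (SE 0.11 each), in the v-Src and STAT3-C lines. The level of Adam24 in v-Src, STAT3-C and control cells lay between 5.48 and 5.80, 5.53 and 5.86, and 6.31 and 6.45, not far above the lower quartile; without STAT3-C array 2 its STAT3-C value of -0.54 was under the fold threshold. Adam22, another inactive neuronal ADAM, rose at 1 of its 2 probesets, 1435293_at, where levels were 6.31, 6.27 and 6.11 in v-Src cells, 7.10, 7.34 and 7.04 in STAT3-C cells, and 6.08, 6.07 and 6.02 in control cells. This is a log2 fold change of 0.17 (SE 0.08) in v-Src cells and of 1.10 (SE 0.10, adjusted p = 0.000157) in STAT3-C cells, while its probeset of higher level gave 0.07 and 0.09 in the v-Src and STAT3-C lines.

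Of 7 ADAMTS genes whose proteases cut proteoglycans, 1 rose and 1 fell in v-Src cells (14.3% each way). Over all genes 9.54% rose and 10.4% fell in v-Src cells. The STAT3-C values of both ADAMTS genes were under the fold threshold or did not pass. Adamts4, aggrecanase-1, had levels of 9.14, 8.43 and 9.50 in v-Src cells, 7.29, 7.06 and 6.88 in STAT3-C cells, and 7.60, 7.46 and 7.36 in control cells. The v-Src arrays stood above, and the STAT3-C arrays lay just below control. Adamts4 rose by 1.55 (SE 0.25, adjusted p = 0.00347) with v-Src, and had -0.39 (SE 0.13, adjusted p = 0.0477) with STAT3-C, under the fold threshold. Its second, dimmer probeset showed 0.07 in v-Src and -0.13 in STAT3-C cells. Adamts5, aggrecanase-2, had levels of 8.12, 7.58 and 8.00 in v-Src cells, 9.27, 9.15 and 8.55 in STAT3-C cells, and 9.60, 9.89 and 9.21 in control cells. The v-Src arrays lay below all others, and STAT3-C and control arrays overlapped. It fell by 1.67 (SE 0.20, adjusted p = 0.001) with v-Src, against a log2 fold change of -0.58 (SE 0.22, adjusted p = 0.0921) with STAT3-C. Of its other probesets 1450658_at and 1456404_at fell with v-Src, at -0.99 and -1.38, while 1456969_at, near background, gave -0.10.

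Adamts1, which cleaves versican and aggrecan, had levels of 11.48, 10.20 and 11.19 in v-Src cells, 10.47, 9.85 and 9.63 in STAT3-C cells, and 10.27, 10.62 and 9.76 in control cells. The v-Src arrays 1 and 6 lay above all control arrays and array 5 did not. Its log2 fold change with v-Src was 0.74 (SE 0.35, adjusted p = 0.164), and 1.12 (adjusted p = 0.0239) without v-Src array 5. Adamts16, an ADAMTS known from kidney and gonad, had levels of 7.47, 7.38 and 7.29 in v-Src cells, 8.02, 7.89 and 8.07 in STAT3-C cells, and 6.74, 6.99 and 6.84 in control cells. The lines were ordered without overlap, and the gene rose by 1.14 (SE 0.10, adjusted p = 0.00012) with STAT3-C; with v-Src the 0.52 (SE 0.09, adjusted p = 0.00545) was under the fold threshold, and 0.59 without control array 2, which passed. Its other probeset gave -0.16 with STAT3-C (adjusted p = 0.56), so the rise was seen at 1 of 2 probesets. Adamts7, which cleaves cartilage oligomeric matrix protein, fell by 0.74 (SE 0.17, adjusted p = 0.0179) with v-Src and by 0.92 (SE 0.12, adjusted p = 0.000699) with STAT3-C. The v-Src value did not pass without control array 1, 2 or 3 or v-Src array 1 (-0.77 to -0.69, adjusted p 0.0519 to 0.0702). Adamts9, Adamts12 and Adamts15 did not pass. For Adamts12 the log2 fold change with STAT3-C was 0.58, 0.69 without STAT3-C array 3 and 0.70 without control array 1, and the last 2 passed.

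Timp3, a TIMP that binds to the matrix and also inhibits Adam17, was the member with the highest log2 fold change in the comparison of STAT3-C with control. Its levels were 7.01, 6.99 and 7.33 in v-Src cells, 9.16, 9.09 and 9.94 in STAT3-C cells, and 6.25, 6.36 and 6.56 in control cells. The lines did not overlap, with STAT3-C arrays far above both others. Timp3 was 0.72 higher (SE 0.12, adjusted p = 0.00496) in v-Src cells and 3.01 higher (SE 0.22, adjusted p = 4.24e-05) with STAT3-C, which is a fold of 1.65 and 8.03. All 4 of its probesets passed with STAT3-C (1.71 to 3.01), and 2 of 4 with v-Src (0.00 to 0.91 over the 4). Their mean rose by 0.53 with v-Src, under the fold threshold.

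Timp1, the inducible secreted TIMP, had levels of 11.80, 11.93 and 11.88 in v-Src cells, 12.43, 11.87 and 12.15 in STAT3-C cells, and 11.13, 11.03 and 11.65 in control cells. Both lines lay above control, with control array 3 the highest control value. It rose by 0.60 (SE 0.16, adjusted p = 0.0291) with v-Src and by 0.88 (SE 0.19, adjusted p = 0.0102) with STAT3-C. The v-Src value was at the fold threshold and no longer passed after median centring (0.53), nor without control array 1 or 2 or any v-Src array (0.48 to 0.64, adjusted p 0.0719 to 0.0979). Timp2, which inhibits Mmp2 and also takes part in its activation with Mmp14, was high in every line: 12.42, 12.46 and 12.79 in v-Src cells, 12.83, 12.82 and 12.80 in STAT3-C cells, and 12.90, 13.05 and 12.53 in control cells. Its log2 fold changes were -0.27 and -0.01 in the v-Src and STAT3-C lines, and of 6 probesets 1 passed, 1420924_at, by 0.74 with v-Src (SE 0.19, adjusted p = 0.0248). Timp4 did not pass at its probeset of highest level, with 0.28 in v-Src and 0.45 in STAT3-C cells. At its dimmer probeset, 1423405_at, it rose by 0.79 with v-Src (SE 0.14, adjusted p = 0.00475), where control levels lay below the lower quartile.

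Reck had levels of 7.75, 7.21 and 8.01 in v-Src cells, 8.17, 8.71 and 8.09 in STAT3-C cells, and 8.67, 8.75 and 8.65 in control cells. The v-Src arrays lay below every other array, and STAT3-C array 2 was within the control range. It fell by 1.03 (SE 0.19, adjusted p = 0.00645) in v-Src cells, while in STAT3-C cells the log2 fold change was -0.37 (SE 0.16, adjusted p = 0.125). Reck was the only inhibitor of the 5 to pass downward in either comparison with control.

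**Figure D4:**
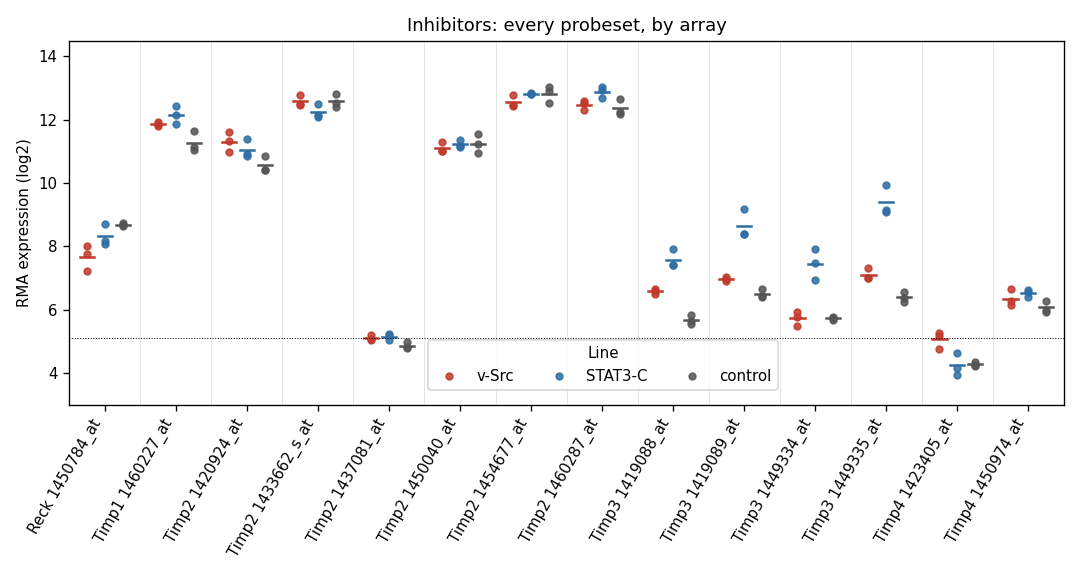
RMA level on the log2 scale (y axis) for every probeset of Reck and the 4 TIMP genes (x axis), in v-Src (red), STAT3-C (blue) and control cells (grey); points are arrays, short bars are means over 3 arrays, and the dotted line is the lower quartile of all probesets averaged over the 9 arrays. All 4 Timp3 probesets are highest in STAT3-C cells, and the 3 v-Src points of Reck lie below the rest.

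The transfected lines were also set against each other, in which 7 of 66 genes passed (10.6%), 4 with the higher level in v-Src cells (6.06%) and 3 with the lower (4.55%), where 11.7% of all genes passed, 4.84% higher and 6.83% lower. Of 117 probesets, 20 passed, 11 upward and 9 downward, against 10.3% of all probesets, 4.99% and 5.33% by direction. Adamts4 was 1.94 higher in v-Src cells (SE 0.25, adjusted p = 0.00268), Mmp14 1.14 (SE 0.15, adjusted p = 0.00267), Adam17 0.66 (SE 0.10, adjusted p = 0.00415) and Adam19 0.66 (SE 0.17, adjusted p = 0.0292). For Mmp14 all 3 probesets were higher in v-Src cells, by 0.61 to 1.19, and for Adam17 2 of 3 passed. Timp3 was lower in v-Src cells, with a log2 difference of -2.29 (SE 0.23, adjusted p = 0.000977), as were Adamts5 at -1.09 (SE 0.21, adjusted p = 0.0121) and Adamts16 at -0.62 (SE 0.09, adjusted p = 0.00328). All 4 Timp3 probesets passed downward, at -2.29 to -0.99, as did 3 of 4 for Adamts5.

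Adam19 no longer passed without STAT3-C array 1 (0.60, adjusted p = 0.11) or 3 (0.54, adjusted p = 0.0721) or v-Src array 1 (0.64, adjusted p = 0.0954) or 6 (0.62, adjusted p = 0.0977), nor did Adamts5 without STAT3-C array 1 (-0.95, adjusted p = 0.0557) or Adamts16 without STAT3-C array 3 (-0.58) or v-Src array 6 (-0.57), where the fold was under 1.5. Mmp19 missed the threshold at 1.15 (SE 0.34, adjusted p = 0.0528), and passed at its other probeset with 1.54 (SE 0.41, adjusted p = 0.0362) and without v-Src array 5 (1.58, adjusted p = 0.00241). Adam8 and Adamts1 also passed only without v-Src array 5, with 0.91 and 1.35, against 0.52 (adjusted p = 0.278) and 0.97 (adjusted p = 0.0906) with all arrays. For Reck the lines differed by -0.66 (SE 0.23, adjusted p = 0.0904), under which its fall with v-Src was not shown to differ from the value with STAT3-C, while the fit of all 9 arrays called it lower in v-Src cells (-0.66, adjusted p = 0.0471). Mmp3, Mmp13, Mmp2 and Mmp9 had direct differences of 0.05 (SE 0.11), 0.20 (SE 0.08), 0.51 (SE 0.17) and 0.16 (SE 0.19) and did not pass. The methods state that control arrays were normalized once with v-Src and once with STAT3-C arrays, and which run each deposited column comes from is not given in the sources used here. A run could therefore coincide with the line in this comparison or in a comparison with control, which was not tested.

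**Figure D5:**
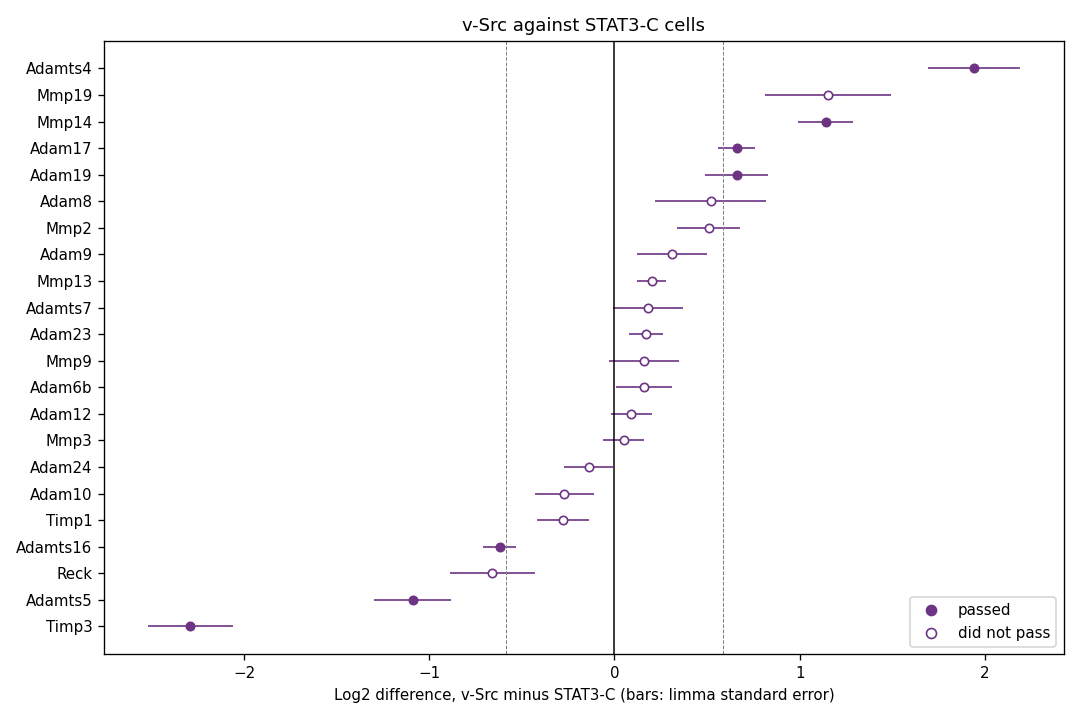
Log2 difference of v-Src minus STAT3-C cells (x axis) for the 22 genes that passed in at least 1 comparison, sorted by its size; bars are limma standard errors, filled points passed, open points did not, and dashed lines mark a fold of 1.5 each way. Adamts4, Mmp14, Adam17 and Adam19 lie to the right as filled points and Timp3, Adamts5 and Adamts16 to the left.

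The partners of these proteases, taken as a list of activators, receptors, other matrix proteases and ADAMTS-like proteins, were measured for 39 of 41 genes. In v-Src cells 7 passed upward (17.9%) and 3 downward (7.69%), and in STAT3-C cells 6 upward (15.4%) and 5 downward (12.8%). Over all genes the shares were 9.54% and 10.4% by direction in v-Src cells, and 11.9% and 10.3% in STAT3-C cells. Thbs2 and Thbs1, thrombospondins that bind MMPs, fell, with log2 fold changes of -4.73 and -2.44 in v-Src and of -4.62 and -3.00 in STAT3-C cells. Plaur, the receptor of urokinase, whose product plasmin activates MMP precursors, had levels of 10.79, 10.70 and 10.77 in v-Src cells, 9.59, 9.33 and 9.94 in STAT3-C cells, and 8.07, 8.32 and 8.35 in control cells. Its log2 fold change was 2.51 (SE 0.10) in v-Src cells and 1.38 (SE 0.16) in STAT3-C cells, and it was 1.13 higher in the direct comparison of v-Src with STAT3-C cells (adjusted p = 0.00266). Plau, urokinase, rose by 1.04 in v-Src cells and 1.96 in STAT3-C cells, and the direct comparison gave -0.92, lower in v-Src cells (adjusted p = 0.0181). Adamtsl4, an ADAMTS-like matrix protein without a protease domain, rose by 2.17 in v-Src cells (adjusted p = 0.00212) and 0.78 in STAT3-C cells (adjusted p = 0.0113), with a direct difference of 1.39 (adjusted p = 0.0235). Tspan15, a tetraspanin that directs Adam10, rose by 0.93 in v-Src cells (adjusted p = 0.00119) and 1.42 in STAT3-C cells (adjusted p = 0.000273), and its direct difference of -0.49 (adjusted p = 0.031) was under the fold threshold. Furin, which cleaves the propeptide from Mmp14 and ADAMs, was 0.73 higher in v-Src cells in that comparison (adjusted p = 0.0438).

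Substrates were measured for 33 of 34 listed genes, with 6 upward (18.2%) and 5 downward (15.2%) in v-Src cells, and 3 upward (9.09%) and 8 downward (24.2%) in STAT3-C cells, beside all-gene shares of 9.54% and 10.4% in v-Src cells and 11.9% and 10.3% in STAT3-C cells. Vcan, versican, a substrate of Adamts1, Adamts4 and Adamts5, had levels of 4.24, 4.26 and 4.16 in v-Src cells, 4.01, 3.97 and 4.07 in STAT3-C cells, and 10.71, 9.69 and 10.67 in control cells. In both lines it was near background, with log2 fold changes of -6.14 in v-Src and -6.34 in STAT3-C cells. Vcam1, an adhesion receptor shed by Adam17, had -3.28 and -3.16, and Kitl, the shed ligand of the Kit receptor, -1.94 and -2.06, in the v-Src and STAT3-C lines. Col1a1, the main fibrillar collagen, fell by 1.34 in v-Src cells (SE 0.21) and by 1.86 in STAT3-C cells (SE 0.10). Hbegf, a growth factor released by ADAMs, rose by 2.12 (SE 0.12) with v-Src and by 1.36 (SE 0.25, adjusted p = 0.00451) with STAT3-C, a difference that did not pass in the direct comparison (0.76, adjusted p = 0.0827). Its levels were 9.16, 8.96 and 9.31 in v-Src cells, 8.23, 7.91 and 9.01 in STAT3-C cells, and 7.01, 7.18 and 6.87 in control cells. In the direct comparison the basement membrane genes Lamb1, Col4a1 and Col4a2 were 1.63, 1.62 and 1.11 higher in v-Src cells, and Col3a1, a fibrillar collagen, was lower at -1.25.

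As a check of the lines, Socs3, a feedback target of STAT3, rose by 3.63 (adjusted p = 3.19e-05) with v-Src and by 1.43 (adjusted p = 0.00373) with STAT3-C. The Src probeset did not pass with v-Src (-0.11, adjusted p = 0.553). That of Stat3 passed upward with v-Src, at 1.53, and did not pass with STAT3-C (0.24, adjusted p = 0.291). In the direct comparison Stat3 was 1.29 higher in v-Src cells, which also passed. Whether the probes of Src and Stat3 can read the transfected constructs was not tested.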

How the data were processed

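RNA was measured on Affymetrix arrays and the authors deposited log2 values made by Robust Multichip Average (RMA), 1 column for each of the 9 arrays. They were used as deposited, and 64 Affymetrix control probesets were left out. The lines come from the sample titles. Array depth does not apply, and the number of arrays limits the precision. Each comparison was fitted on its 6 arrays with limma 3.58.1 (lmFit and eBayes) in R 4.3.3, after the fits were tested on simulated data. Symbols came from the platform annotation (34945 probesets with 1 symbol, 932 with several, 9160 with none), and all 66 member gene numbers matched the RefSeq gene table (GRCm38.p6), used for names and gene order. Promoter letters were searched in the RefSeq promoter table with python 3.11.15. The members, lists and tests were chosen with earlier results of these data known. Genes are named by rule: inhibitors, the MMPs of known class, the ADAMs and ADAMTSs usually studied in fibroblasts, every other member that passed, and up to 4 list genes a comparison by size. Others named beside them (Adamts6, Adam1b, Adam21, Adam22, Adam25, Adam28, Mmp20, Mmp23, Thy1, Lum, Vim, Fn1, S100a4, Epcam, Cdh1, Krt5, Krt8, Krt14, Krt18, Pecam1, Tek, Kdr, Cdh5, Lyz2, Cd68, Ptprc, Itgam, Adgre1 and Csf1r) were chosen after their values were seen. Src, Stat3 and Socs3 formed a separate list, named in full as a check of the lines. Alternatives were all 9 arrays in 1 fit, quantile normalization, median centring, a filter at the median level, other fold and p thresholds, SAM over 20 groupings at q under 5%, eBayes with trend and robust, a gene's mean over its probesets, leaving out each array, and a replicate block.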

Additional observations from a re-analysis of the deposited data

Results flagged for a closer look

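The effects of v-Src and STAT3-C, each against the same control arrays, differed by the direct test between the lines for 7 of 66 genes (10.6%). Over all genes 11.7% passed the same test. The log2 difference, v-Src minus STAT3-C, was 1.94 for Adamts4, 1.14 for Mmp14, 0.66 for Adam17 and 0.66 for Adam19. It was -2.29 for Timp3, -1.09 for Adamts5 and -0.62 for Adamts16. The calls of Adam19, Adamts5 and Adamts16 were lost without certain single arrays: the lowest size was 0.54 for Adam19 (without STAT3-C array 3), -0.95 for Adamts5 (without STAT3-C array 1) and -0.57 for Adamts16 (without v-Src array 6). At the mean of both Adamts16 probesets the difference was -0.11 (adjusted p = 0.471).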

How the results depend on the processing

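No called value changed direction under any alternative. Of 42 called values of named genes, 20 kept their call under every alternative. With a fold of at least 2, member probesets higher and lower numbered 9 and 9 with v-Src, 10 and 9 with STAT3-C, and 5 and 4 in the direct comparison; member genes higher and lower with v-Src numbered 3 and 6, and member genes higher in the direct comparison 2. At an adjusted p under 0.01, member genes higher with v-Src numbered 6 and probesets higher in the direct comparison 6. With no fold threshold 8 member genes were higher in the direct comparison. Leaving out 1 array at a time, the v-Src comparison had 16 to 22 probesets higher, 13 to 15 lower, 6 to 10 genes higher and 9 to 10 lower; the 6 were without v-Src array 1 or 6. The STAT3-C comparison had 15 to 19 and 12 to 15 probesets and 6 to 7 and 8 to 10 genes. The direct comparison had 6 to 14 and 7 to 9 probesets and 3 to 7 and 2 to 3 genes: 6 probesets higher without STAT3-C array 1, 7 without STAT3-C array 3 or v-Src array 1 or 6, and 7 genes higher without v-Src array 5. With the replicate block for STAT3-C against control, 16 probesets and 6 genes were higher and 14 and 9 lower, as without it, and no gene call changed; the block rests on shared numbers only, since the deviations of same-numbered arrays correlated at -0.0926, 0.0645 and 0.0446. The direct call of Mmp19 was made by SAM, by the fit of all 9 arrays (adjusted p = 0.0272) and with trend and robust, and that of Reck by the fit of all 9 arrays (adjusted p = 0.0471). Of the member genes, 40 passed the filter at the median level. RMA levels near background limit the falls of Mmp3 and Mmp13.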
